A study of Rattus norvegicus with 20 samples.

Results

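The livers of 5 rats fed a diet free of lignan were described on their own, 1 Affymetrix expression array per rat. They are the 5 arrays of 20 whose labels name the control diet, and no lignan-fed rat enters any value below except through the normalization of the arrays to a common distribution. The values cover 31099 probe sets, of which 20826 had 1 gene symbol and stood for 14217 genes. The other 15 arrays of the study come from rats given 1 of 3 sesame lignans.

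All 5 animals were male Sprague-Dawley rats, a closed outbred stock, that arrived at 4 weeks of age. They ate a commercial non-purified diet for 7 d and then the lignan-free diet for 15 d, so they were about 50 days old at the end. Cages held 1 rat each and lights were on from 7 to 19 h. Each diet group had 7 rats, and the heaviest and the lightest of each were not put on arrays, so the spread below is that of the middle 5 by weight. The animals were bled under ether, a whole-liver RNA sample was taken from each, and biotin-labelled cRNA was made from it without pooling. The hour of killing and the feeding state are not stated in the labels, which also name no batch. As each rat had 1 array, differences between rats hold animal and measurement differences together.

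The liver makes most proteins of blood plasma, stores and releases glucose, makes and burns fat, disposes of ammonia as urea, forms bile, and modifies drugs and hormones. Hepatocytes do most of this work, and their gene products are often liver forms of enzymes that other organs make from sister genes. Around them lie endothelial cells of the sinusoids, resident macrophages (Kupffer cells), vitamin A-storing stellate cells and bile duct cells. In whole tissue, fewer cells of a type and less RNA per cell cannot be told apart.

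Raw array means ran from 197 in rat 3 to 271 in rat 5, and the actin 3' to 5' signal ratio, a sign of RNA integrity, from 2.12 to 2.45. Correlations between pairs of arrays over all probe sets lay between 0.957 and 0.972, with rat 3 at the lower end (0.957 to 0.962). Levels are quantile-normalized intensities given as the mean ± SD of 5 rats. A gene counts as above the filter level where its intensity exceeded 17.8, the 40th percentile of all values. Of the 14217 genes, 9466 (66.6%) were above it on all 5 arrays and are called detected below, 2457 were on some arrays and 2294 on none. Precision is limited by there being 5 arrays. Intensity also depends on how well each probe set binds its target, so the order of genes below is an order of signal. Values of different genes stand side by side, and no fold between them is given.

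The labelled tissue showed in its markers. Albumin, the main protein of plasma, read 15552, 13519, 15216, 12988 and 12072 in rats 1 to 5 (mean 13869 ± 1481, SD, n = 5). Apolipoprotein A1 (Apoa1), the main protein of high-density lipoprotein, averaged 11898 ± 819. Carbamoyl phosphate synthetase (Cps1), which takes ammonia into the urea cycle, averaged 7049.6 ± 603. All 14 measured hepatocyte markers were above the filter level on all 5 arrays and within the top 10% of genes by mean, and their summed intensity differed little between rats, from 111244 to 117157. The highest of them was Fabp1, a fatty acid carrier of the cytosol, and the lowest was Asgr2, a subunit of the asialoglycoprotein receptor, at 1484 ± 184.

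The promoter of albumin is shown because this gene defines the tissue. It is the RefSeq window of 250 bases that ends just before the annotated start on the GRCr8 assembly (chr14:17906980-17907229, minus strand), written in the direction of transcription. Capitals mark CCAAT, a common promoter element, searched on both strands, with 2 matches. A CCAAT match is found in 34% of all 33469 rat windows of this length and in 8 of the 18 windows available for the 25 brightest genes, and it is a match of letters only.
Alb: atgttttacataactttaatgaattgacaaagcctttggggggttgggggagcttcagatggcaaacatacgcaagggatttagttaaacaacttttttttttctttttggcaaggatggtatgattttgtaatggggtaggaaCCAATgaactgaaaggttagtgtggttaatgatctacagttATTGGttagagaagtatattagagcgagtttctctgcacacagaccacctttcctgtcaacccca

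The brightest signals belonged to secreted proteins. Gc, the carrier of vitamin D, led with 16033, 14944, 14552, 14552 and 15552 in rats 1 to 5 (mean 15127 ± 651), ahead of complement C3 (14764 ± 841) and the fibrinogen chain Fgg (14704 ± 389). Fabp1 (14617 ± 1086), apolipoprotein Apoc3 (14458 ± 286) and COX1 (14361 ± 839), a subunit of cytochrome oxidase encoded in mitochondrial DNA, came next. The values of these 6 genes overlapped between rats, so their order is not resolved. For example, C3 was the brightest of the 6 in rat 3 and the dimmest in rat 1. Besides Alb and Apoa1, the rest of the 25 brightest were the protease inhibitors Pzp, Serpina1, Itih3, Ambp and Serpina3l, the haemoglobin and heme scavengers Hp and Hpx, the fibrinogen chain Fgb, prothrombin (F2), the fetuins Ahsg and Fetub, Hrg, vitronectin (Vtn), Apoc1, Rup2, COX2 and the membrane glutathione transferase Mgst1. Raw intensities of the 25 ran from 9357 to 17343.5, close to the top of the scale. Quantile normalization hands the same few top values to every array, and that bounds the spread there.

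**Figure D1:**
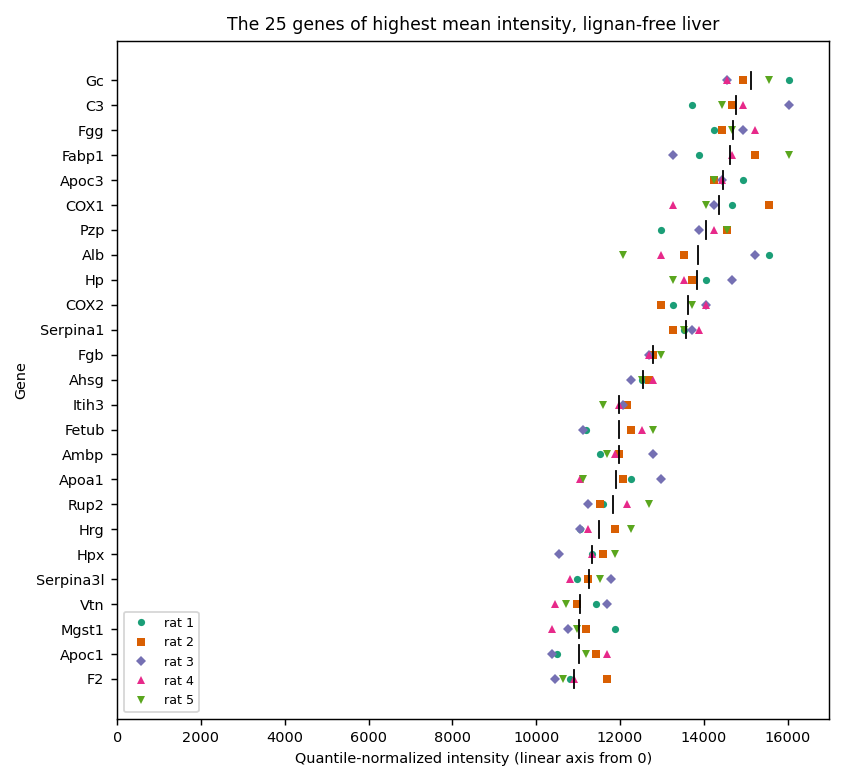
Quantile-normalized intensity (linear axis from 0) of the 25 genes of highest mean, 1 marker per rat and a vertical bar at the mean of 5 rats. Gc had the highest mean, 15127, and the rats' values of neighbouring genes overlap.

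Sorted by function, the secreted and metabolic groups stood highest. Of the 18 measured carriers and transport proteins of plasma, 17 lay in the top 10% of all genes by mean, against 10% of all genes by construction, with a median level of 10287. The 1 member outside it was Serpina7, the thyroxine-binding globulin, named after its values were seen, which was above the filter level on 1 array. Coagulation and fibrinolysis genes had 19 of 20 in the top 10% and a median of 5207, led by Fgg. The exception was tissue factor (F3), also named after its values were seen, which starts clotting outside the vessel and was above the filter level on no array. Apolipoproteins and their assembly factors had 17 of 20 in the top 10% (median 6343), from Apoc3 at the top to the phospholipid transfer protein Pltp (289 ± 127). Complement had 18 of 20 (median 3481), with C9 at 8473 ± 613 and complement factor I (Cfi) at 8090.2 ± 704 behind C3.

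**Figure D2:**
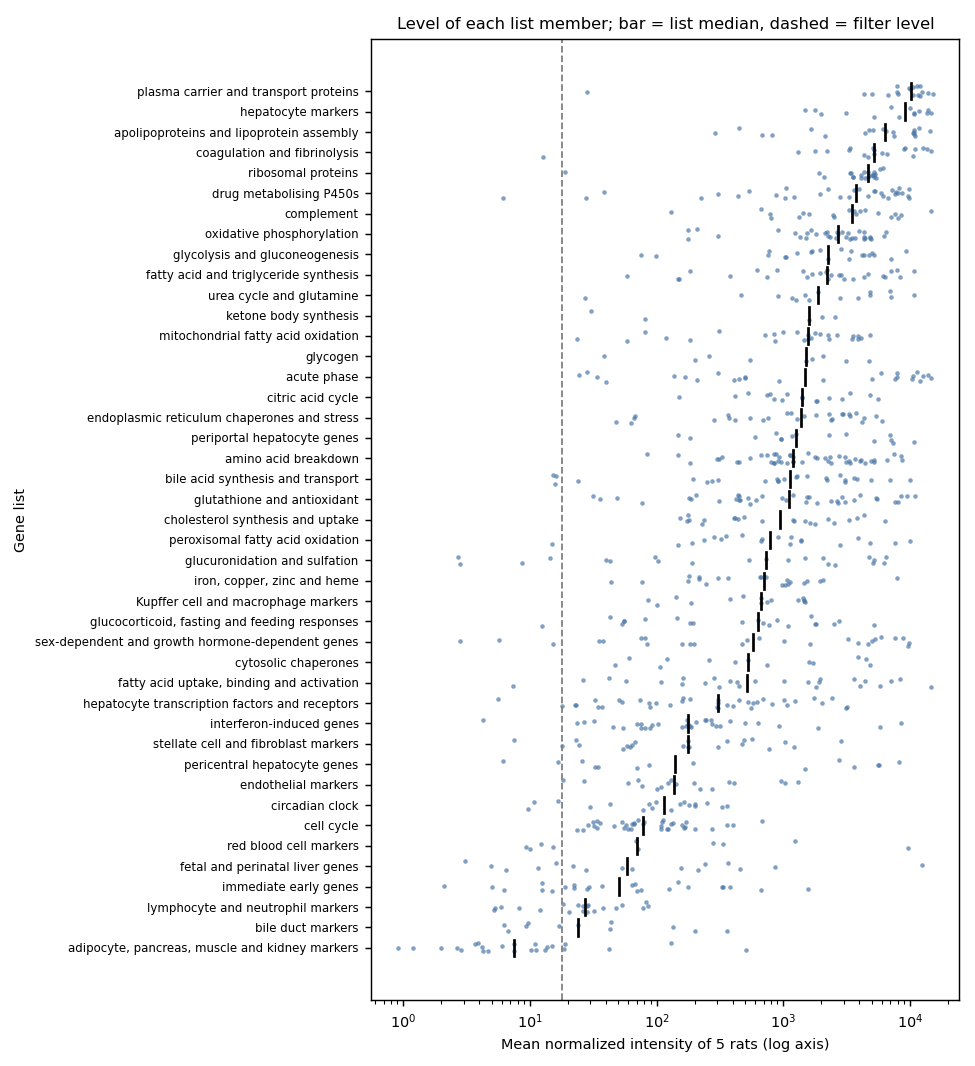
Mean normalized intensity of 5 rats (log axis) for each measured member of 43 gene lists, with a bar at each list's median and a dashed line at the filter level, 17.8. Lists run from plasma carriers at the top (median 10287) to markers of other organs at the bottom (median 7.49).

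Nitrogen disposal was close behind. Ass1, which joins citrulline to aspartate, read 10011, 11049, 10128, 11786 and 10442 in rats 1 to 5, and arginase Arg1, which releases urea, averaged 7007 ± 865. Of 15 measured genes of the urea cycle and glutamine metabolism, 13 were in the top 10%. Amino acid breakdown had 39 of 49 genes there, led by cysteine dioxygenase Cdo1 (8738 ± 527), the tyrosine enzyme Hpd (8432 ± 448), tryptophan dioxygenase Tdo2 (7438 ± 967) and betaine methyltransferase Bhmt (6642 ± 911).

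Both directions of carbohydrate and fat metabolism were bright at once. Glycolysis and gluconeogenesis had 19 of 21 measured genes in the top 10% (median 2269) and fatty acid and triglyceride synthesis 21 of 28 (median 2229). The desaturase Scd averaged 10756 ± 439, the lipogenic regulator Thrsp 8392 ± 992 and the elongase Elovl5 7948 ± 441. Mitochondrial fatty acid oxidation had 19 of 26 (median 1580) with Acaa2, the last enzyme of the cycle, at 4848 ± 691. Peroxisomal oxidation had 10 of 20 (median 792), with catalase (Cat) at 7649 ± 388. Oxidative phosphorylation subunits had 30 of 34 (median 2686) and ribosomal proteins 22 of 23 (median 4640).

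Detoxification was a further bright group. Of 32 measured genes of the drug-metabolising P450 system, 25 lay in the top 10% (median 3778). Cyp2d2 averaged 9905 ± 257 and Cyp2c11, the steroid hydroxylase of male rat liver, 9855 ± 230.3. Glutathione and antioxidant enzymes had 21 of 38 (median 1116), led by Mgst1, superoxide dismutase Sod1 (9447 ± 397) and Gstm1 (8499.6 ± 725). Glucuronidation and sulfation had 10 of 21 (median 726). P450, Ugt2b, sulfotransferase and glutathione transferase genes have close relatives, and signal may be shared between them.

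Regulators were dimmer than the enzymes. Hepatocyte transcription factors and receptors had 9 of 38 genes in the top 10% and a median of 304, with Creb3l3 (3188 ± 530.4) and Hnf4a (3149 ± 236) at the top. None of the 18 measured clock genes was there (median 115), and the cell cycle list had none of 37 (median 77.7). Of 16 fetal and perinatal liver genes, 9 were above the filter level on all arrays, against 66.6% of all genes. Alpha-fetoprotein (Afp) was among them, at 352, 438, 258, 347 and 440.0 in rats 1 to 5.

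Some enzyme families had a detected liver form beside sister genes below the filter level. Of 66 families looked up, 59 had at least 2 measured members. In 11 of these 1 member alone was detected, in 20 all measured members were, and in 24 at least 1 member was above the filter level on no array, among them forms known from muscle, brain and testis. Of all genes, 66.6% were detected and 16.1% were above the filter level on no array. Families of several members would often hold such a gene at these shares, so the counts are not read as a result about families. A member below the filter level is not shown to be absent, since a weak probe set gives the same reading. The families were chosen for their known tissue forms.

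Glucose handling offers the clearest cases. The liver glucose transporter Slc2a2 averaged 4221 ± 281, the widely expressed Slc2a1 40.3 ± 9.19, and the insulin-responsive muscle and fat form Slc2a4 was above the filter on 2 arrays. The fructose transporter Slc2a5 was also measured, at 608 ± 131. Liver pyruvate kinase (Pklr) averaged 4339 ± 386. Fructose bisphosphatase was read as Fbp1 (7082 ± 566), with the muscle form Fbp2 above the filter on 1 array. Cytosolic phosphoenolpyruvate carboxykinase (Pck1) averaged 5238 ± 1145 and its mitochondrial sister Pck2 75.3 ± 27.0. Glycogen phosphorylase was read as the liver form Pygl (3153 ± 428), with the brain form Pygb (101 ± 12.4) and the muscle form Pygm (4 of 5 arrays above the filter). Glycogen synthase followed suit, with the liver form Gys2 at 542 ± 75.5 and the muscle form Gys1 above the filter on 3 arrays. Lactate dehydrogenase was read as Ldha (9385 ± 358), with Ldhb at 85.1 ± 13.3 and the testis form Ldhc above the filter on no array. Hexokinase Hk1 was dim at 55.7 ± 15.9, and Hk2 was above the filter on no array.

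In fat handling, the carnitine palmitoyltransferase that admits fatty acids to liver mitochondria, Cpt1a, averaged 2261 ± 330.4, against 30.1 ± 6.54 for the muscle form Cpt1b. Acetyl-CoA carboxylase was read as Acaca (2185 ± 407), the form that feeds synthesis, and as Acacb (58.4 ± 40.4), which controls oxidation. Among acyl-CoA synthetases, Acsl1 averaged 7139 ± 415, Acsl5 4028 ± 688 and Acsl4 1929 ± 225, and the brain form Acsl6 was above the filter on no array. Fabp1 led the fatty acid binding proteins, but Fabp5 (4202 ± 929) and Fabp7 (1741 ± 257), named for skin and brain, were also bright. Plin2 (4454 ± 481) led the lipid droplet perilipins, and the fat cell form Plin1 was above the filter on 1 array. Hepatic lipase (Lipc) averaged 6163 ± 341 and lipoprotein lipase (Lpl), which acts mostly in muscle and fat, 162 ± 60.9.

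Nitrogen and hormone enzymes gave similar pairs. Arginase was read as Arg1, with Arg2 above the filter on 1 array. The adult liver methionine adenosyltransferase Mat1a averaged 5194 ± 844 and the form of other tissues, Mat2a, 109.7 ± 12.6. The enzyme that activates glucocorticoids, Hsd11b1, averaged 4501 ± 571, and the inactivating Hsd11b2 159 ± 29.0. Deiodinase Dio1, which makes active thyroid hormone in liver, read 217, 267, 268, 80.0 and 114 in rats 1 to 5, so rats 4 and 5 were below the other 3. Dio2 was above the filter on no array. Branched-chain aminotransferase, the first step of leucine breakdown in muscle, was dim in both forms, with Bcat2 at 27.9 ± 4.31 and Bcat1 above the filter on 1 array.

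P450 families were less exclusive. Cyp1a2 averaged 3598 ± 702, whereas the inducible Cyp1a1 was above the filter on no array. In contrast, all 7 measured Cyp2c genes were bright, from Cyp2c12 (5303 ± 1544) to Cyp2c11. Cyp2c12 is known as a female form, and its reading of 7096, 3587, 5004, 4135 and 6692 in 5 male livers comes from a probe set that could share signal with the male forms. The Cyp3a genes ranged from Cyp3a2 (5933 ± 555) through Cyp3a18 (2247 ± 1029.9) to Cyp3a9 (226 ± 142). Sulfotransferases were led by Sult1a1 (6504 ± 516) and the estrogen form Sult1e1 (6216 ± 1307), with Sult2a1 above the filter on no array.

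In the respiratory chain, the heart and muscle forms Cox6a2 and Cox8b and the lung form Cox4i2 were above the filter on no array, while Cox4i1 averaged 6504 ± 424, Cox6a1 3169.8 ± 155 and Cox8a 4404 ± 206. The ADP/ATP carrier was read as Slc25a5 (5699 ± 48.4), with the heart form Slc25a4 at 175 ± 50.2. Keratins showed the hepatocyte pair Krt8 (1334 ± 189.8) and Krt18 (1438 ± 225), with the bile duct keratins at 43.3 ± 15.2 for Krt19 and Krt7 above the filter on 1 array. The connexin Gjb1 averaged 3650.5 ± 418 and aquaporin Aqp9, the glycerol channel of hepatocytes, 2419.6 ± 178.

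A receptor family went against what is generally known of liver. The fatty acid receptor Ppara, widely studied in rat liver, was above the filter level on no array, whereas Ppard averaged 185 ± 18.0. Of the retinoid X receptors that pair with them, Rxra averaged 88.0 ± 43.6, Rxrb 36.8 ± 11.5 and Rxrg 307 ± 50.8. Ppara and Rxra had 1 probe set each, and how well those report their transcripts was not tested.

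Markers of cells other than hepatocytes were detected in all 5 samples. Counts of markers are read against all genes, of which 66.6% were detected and 16.1% were above the filter on no array. All 15 measured Kupffer and macrophage markers were above the filter on all arrays, summing to between 10676 and 11822, with the antigen chaperone Cd74 at 1486 ± 306 and the Kupffer lectin Clec4f at 1448 ± 107. Of 22 stellate and fibroblast markers, 19 were above it (sum 8141 to 11571), led by collagen Col3a1. Of 18 endothelial markers, 16 were (sum 4987 to 6059), led by Lyve1 (1313 ± 83.0), a hyaluronan receptor of sinusoids. Only 9 of 20 lymphocyte and neutrophil markers and 5 of 11 bile duct markers were, and Cd3d, Cd8b, Cd2, Cxcr2, Cftr and Cldn7 were above it on no array. Red blood cell RNA was bright in its globin Hbb (9734 ± 633, a probe set marked for possible cross-hybridization). Of 10 red blood cell markers 6 were above the filter, which is near the share of all genes. Of 24 markers of fat, pancreas, muscle and kidney, 14 were above the filter on no array, including leptin (Lep), trypsin (Prss1) and uromodulin (Umod). The 3 above it on all arrays were Cela1, the brightest of the list, Cfd and Fabp4, each highest in rat 3.

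Between rats, most genes differed little. The SD of log2 intensity had a median of 0.197 over the 9466 genes, with 0.093 and 0.384 as the 10th and 90th percentiles. Spread is also given as the ratio of the highest to the lowest rat, computed after adding 5.85 (the 20th percentile of all values) to each intensity, which understates the ratio of dim genes. The median ratio was 1.40. In 1399 genes it was below 1.2, in 800 genes (8.45%) at least 2, in 56 at least 4 and in 9 at least 10. Without rat 3 the count of at least 2 fell to 448. Dimmer genes spread more: the share with a ratio of at least 2 was 12% in the dimmest 25% of them, then 9.72% and 6.64%, and 5.45% in the brightest. Counts of list members with such a ratio are read against the 8.45%. Under another setting they are read against all genes detected there. Those with the ratio were 577 of 9603 without rat 1, 645 of 9553 without rat 2 and 448 of 9676 without rat 3. They were 678 of 9552 without rat 4 and 661 of 9555 without rat 5. Median scaling gave 1019 of 9424, and no normalization gave 1522 of 9470.

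**Figure D3:**
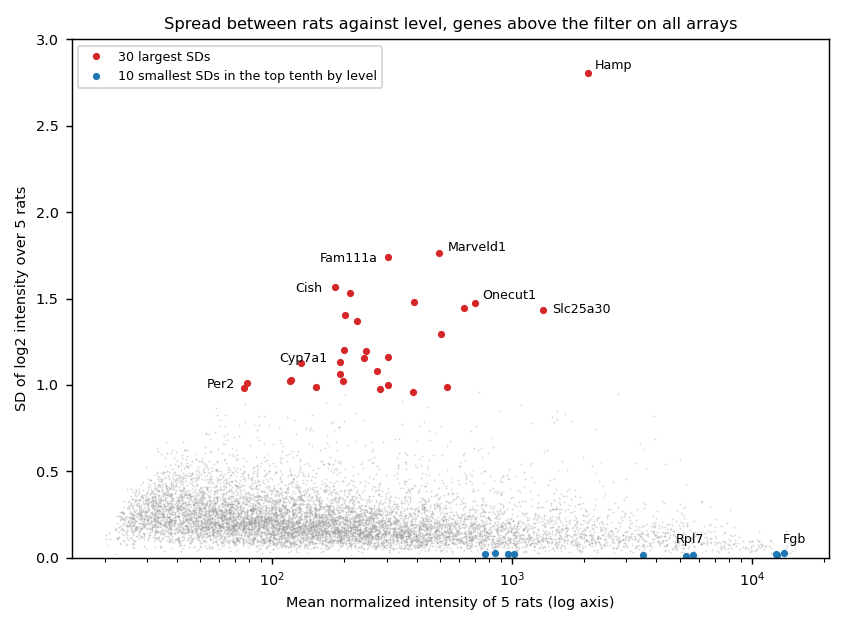
SD of log2 intensity over 5 rats against mean intensity (log axis) for the 9466 genes above the filter on all arrays, with the 30 of largest SD in red and the 10 of smallest SD in the brightest 10% in blue. Hamp stands apart at an SD of 2.81, and the median over all genes was 0.197.

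The 10 smallest SDs among the brightest 10% of genes belonged to housekeeping and secreted products. Ribosomal protein Rpl7 read 5312, 5301, 5312, 5352 and 5378 in rats 1 to 5, and the ADP/ATP carrier Slc25a5 read 5662, 5635, 5747, 5721 and 5732. The second probe set of Rpl7 read 194, 104, 124, 90.7 and 88.8, which is not as even. The other 8 were Vapa and Copb1, which serve membrane traffic, the pyrophosphatase Ppa2, the proteasome subunit Psmd7, the sialyltransferase St3gal6, and the plasma proteins Fgb, Ahsg and Serpina1. By function, no gene with a ratio of at least 2 was found among the detected plasma carriers (17), coagulation (19), complement (20), urea cycle and glutamine (14), citric acid cycle (17), glycogen (9), ribosomal (22) or Kupffer and macrophage genes (15). Against 8.45% of all detected genes, and 5.45% of the brightest 25%, few would be due in lists this short, so each 0 is near the background. Under median scaling 1 complement gene and 1 macrophage gene reached that ratio. Without normalization 2 of each did, with 1 plasma carrier and 1 ribosomal gene.

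The hormone of iron balance varied most. Hamp encodes hepcidin, the peptide by which the liver lowers the release of iron into blood. It read 2004, 2765, 109, 73.5 and 5396 in rats 1 to 5, with a log2 SD of 2.81 and a ratio of 68.1, which was 34.9 without rat 5. Rats 1, 2 and 5 were high, rats 3 and 4 were low, and no rat lay between 109 and 2004. The iron sensor Tfr2 read 1537, 1706, 1466, 1540.4 and 1446, and ceruloplasmin (Cp), the copper protein that oxidizes iron, 8179, 8027, 7529, 8250.4 and 7845. Of 22 detected genes for iron, copper, zinc and heme, 4 had a ratio of at least 2 (18.2%, against 8.45% of all detected genes). Under median scaling 7 had, against 1019 of 9424 genes. Metallothionein Mt2A, which binds zinc and copper, read 88.3, 143, 757, 337 and 198, highest in rat 3.

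The hepcidin promoter is printed because this gene led the spread. The window is that of RefSeq on GRCr8 (chr1:95300272-95300521, minus strand), 250 bases in the direction of transcription. Capitals mark TTCNNNGAA, the palindrome that STAT factors bind, searched on both strands, with 1 match. These letters occur in 7.67% of all windows and in 5 of the 22 windows available for the 30 most variable genes. They also occur in 4 of the 18 available for the 25 brightest genes, so they are not particular to variable genes.
Hamp: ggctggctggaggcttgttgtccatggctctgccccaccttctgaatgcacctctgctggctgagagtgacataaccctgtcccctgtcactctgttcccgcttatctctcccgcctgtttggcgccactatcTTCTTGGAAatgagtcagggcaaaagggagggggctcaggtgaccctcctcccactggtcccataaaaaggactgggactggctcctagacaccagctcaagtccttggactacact

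Among genes that depend on sex and growth hormone, Cish had the largest spread. Cish, a feedback inhibitor of cytokine receptors that growth hormone induces through STAT5, read 39.6, 36.2, 87.7, 550.1 and 198 in rats 1 to 5 (ratio 13.2, and 4.84 without rat 4). Rat 4 was the highest, rat 5 was next, and rats 1 and 2 were at the bottom. Its second probe set gave 20.8, 29.2, 38.7, 240.5 and 62.9, with the same 2 rats on top. Of 21 detected genes of the sex- and growth hormone-dependent list, 7 had a ratio of at least 2, against 8.45% of all detected genes. Without rat 3, 4 had, against 448 of 9676 genes. The list's bright members differed in spread. Igf1, the growth factor through which growth hormone acts on the body, read 8803, 7806, 8803, 9126 and 9769 and Cyp2c11 10061, 10128, 9671, 9612 and 9805. The lipocalin Obp3, also bright, read 4315, 4088, 1318, 3949 and 5889, with rat 3 alone low, as on its second probe set (1100.2 against at least 3290.1).

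The Cish window (chr8:116850719-116850968, plus strand, GRCr8, from RefSeq) is shown for the number of its matches to the same letters, TTCNNNGAA, which is 4.
Cish: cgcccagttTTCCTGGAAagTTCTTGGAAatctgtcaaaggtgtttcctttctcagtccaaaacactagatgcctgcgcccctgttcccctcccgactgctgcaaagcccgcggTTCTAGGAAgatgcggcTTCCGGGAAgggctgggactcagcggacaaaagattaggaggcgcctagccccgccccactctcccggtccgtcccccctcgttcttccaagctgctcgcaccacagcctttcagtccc

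**Figure D4:**
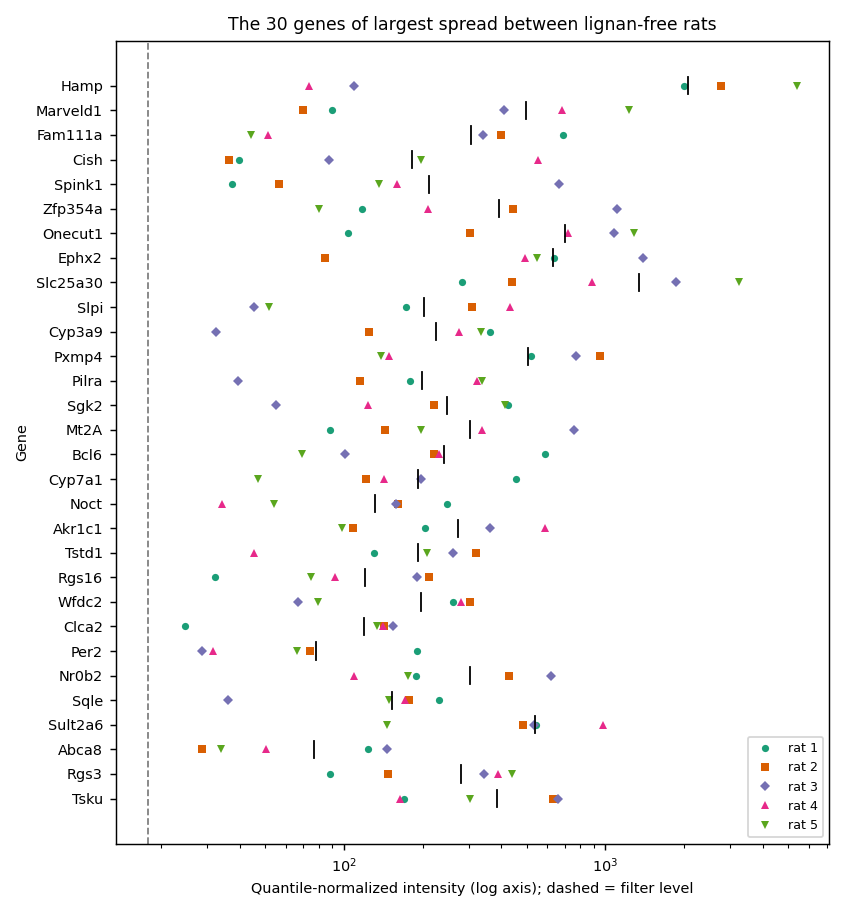
Quantile-normalized intensity (log axis) of the 30 genes of largest log2 SD, 1 marker per rat, a vertical bar at the mean and a dashed line at the filter level. Their ratios of highest to lowest rat run from 3.92 to 68.1, and no single rat is the extreme one throughout.

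The rest of the 30 most variable genes came from several functions. Bcl6, a transcriptional repressor, read 586, 220.1, 101, 231 and 69.0 in rats 1 to 5, with rat 1 highest and rat 5 lowest. The transcription factor Onecut1 read 103, 303, 1080.2, 721 and 1281, and its second probe set, at 48.0, 88.4, 266, 191 and 343, ranked the rats alike. Slc25a30, a mitochondrial carrier, read 283, 440.0, 1859, 885 and 3238 in rats 1 to 5, and its second probe set 75.1, 104, 454, 316 and 881, again with rat 5 highest. Marveld1 read 90.3, 69.4, 408, 680.3 and 1227 and Fam111a, a protease, 688, 399, 342, 51.3 and 44.1. In Marveld1 rats 1 and 2 were the low ones and in Fam111a rats 4 and 5 were. The trypsin inhibitor Spink1 read 37.4, 56.6, 664, 159.8 and 136, with rat 3 far above the others (ratio 15.5, and 3.83 without rat 3). Soluble epoxide hydrolase (Ephx2) read 637, 84.8, 1387, 493 and 546, with rat 2 alone low. The peroxisomal membrane protein Pxmp4 read 519, 955, 774, 148 and 139, with rats 4 and 5 low on both of its probe sets. The secreted inhibitors Slpi (173, 308, 45.3, 431 and 51.5) and Wfdc2 (260.1, 302, 66.8, 279 and 79.6) were both low in rats 3 and 5. Zfp354a, Pilra, Sgk2, Akr1c1, Tstd1, Rgs16, Clca2, Sult2a6, Abca8, Rgs3 and Tsku completed the set with Cyp3a9, Cyp7a1, Nr0b2, Noct, Per2 and Sqle, which are described with their pathways. Over the 30, rats 1 and 3 were each the highest in 8 genes, rat 5 in 6, and rats 2 and 4 in 4. Over all detected genes the shares of rats 1 to 5 were 22%, 19.8%, 25.4%, 16.9% and 15.9%.

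A second probe set gave an internal check of the spread. Of 2293 genes with another probe set above the filter on all arrays, 32.5% had the same highest rat on both and 31.8% the same lowest rat. Among the 170 of them with a ratio of at least 2, these shares were 55.9% and 49.4%, and the second probe set also had a ratio of at least 2 in 38.8%. Among the 350 with a ratio below 1.2 the shares were 25.1% and 27.1%. Of the 30 most variable genes, 7 had such a second probe set. In all 7 its ratio was at least 2, in 6 the highest rat was the same, and in 3 the lowest. Among bright genes printed by rat, the second probe set of Gc read 2931, 3006, 3251, 1326 and 2350, with another highest rat. That of Alb read 11982, 10815, 11425, 11117.5 and 11049, with the same highest but another lowest rat. That of Igf1 read 8211, 6774, 6882, 6490.2 and 7270, with another highest and another lowest rat, as did that of Cp, at 6402, 6733, 6060, 5801 and 5533.

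Cholesterol synthesis genes were low together in rat 3. This pathway builds sterols from acetyl-CoA and its genes are known to respond together to the sterol content of the cell. Squalene epoxidase (Sqle), an early enzyme of the sterol branch, read 230.4, 177, 35.9, 171 and 149 in rats 1 to 5 (ratio 5.66, and 1.52 without rat 3), and the thiolase Acat2 read 399, 468, 139, 713 and 491. Lanosterol demethylase (Cyp51) read 3364, 2966, 1678, 4284 and 4183, and its second probe set 813, 1086, 509, 982 and 1010.3. In each of these 3 genes rat 3 was alone at the bottom. Farnesyl diphosphate synthase (Fdps), the brightest member, read 6882, 6359.8, 5045, 6582 and 6754, again lowest in rat 3, with a ratio of only 1.36. Of 22 detected genes of cholesterol synthesis and uptake, rat 3 was the lowest in 18, against 24.1% of all detected genes, and 11 of 22 had a ratio of at least 2 (8.45% of all). Without rat 3, 2 of 22 did, against 448 of 9676 genes. An exception was Insig1, which keeps the sterol-sensing machinery in the endoplasmic reticulum, at 5129.9, 5934, 2922, 2599 and 5173, where rat 4 was lowest.

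The mean log2 deviation of these genes from their 5-rat mean was -0.65 in rat 3 and between 0.09 and 0.20 in the other 4 rats. With median scaling it was -0.84 in rat 3, and without normalization -0.97. Over all detected genes the mean deviation of rat 3 was -2.7e-05 under quantile normalization, -0.157 with median scaling and -0.289 without normalization. Rat 3 also had the dimmest array (raw mean 197) and was the lowest rat in 48.2% of genes under median scaling and in 65.1% without normalization. The part of array brightness in the low sterol values was not tested.

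The window of Fdps (chr2:176804817-176805066, minus strand, GRCr8, from RefSeq) is shown as the brightest gene of that list. Capitals mark TCANCCCAC, letters that resemble the sterol regulatory element, searched on both strands, with 1 match, written here as its reverse complement. It is a match of letters only and is not shown to be that element. These letters occur in 1.04% of all windows, and among the 18 windows available for the detected sterol genes only in that of Fdps. CCAAT, searched in the same windows, was in 14 of these 18, against 34% of all windows.
Fdps: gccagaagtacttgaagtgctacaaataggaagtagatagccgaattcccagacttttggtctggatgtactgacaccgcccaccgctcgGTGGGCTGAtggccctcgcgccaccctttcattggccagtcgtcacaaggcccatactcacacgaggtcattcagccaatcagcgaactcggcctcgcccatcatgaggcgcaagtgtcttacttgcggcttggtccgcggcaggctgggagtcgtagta

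Bile acid genes differed in their spread. Cyp7a1, the rate-limiting enzyme, read 455, 121, 197, 143 and 47.1 in rats 1 to 5 (ratio 8.70), highest in rat 1 and lowest in rat 5. The ratio was 3.84 without rat 1 and 3.63 without rat 5. Nr0b2, the receptor known as SHP that represses Cyp7a1, read 188, 428, 621, 109 and 176, highest in rat 3. The bile acid importer Slc10a1 (6968 ± 748) and the conjugating enzyme Baat (4971 ± 333) had ratios of 1.34 and 1.2. In all, 5 of 23 detected genes of this list had a ratio of at least 2, against 8.45% of all detected genes. Without rat 3, 3 had, against 448 of 9676 genes.

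Genes known to answer to glucocorticoids, fasting and feeding had the largest share of variable members. Of 19 detected, 14 had a ratio of at least 2, against 8.45% of all detected genes, and 11 to 14 did when each rat was left out. They did not share 1 pattern. Tyrosine aminotransferase (Tat) read 3315, 2015, 1731, 826 and 1033 in rats 1 to 5 and the kinase Sgk1 2523, 695, 782, 494 and 939.6, both highest in rat 1. Angptl4, which inhibits lipoprotein lipase, read 676, 1289.8, 2862, 1150.3 and 2341, and the phosphatidate phosphatase Lpin1 read 384, 1300.4, 1576, 662 and 548, both highest in rat 3. Pck1, the gluconeogenic enzyme of this list, was highest in rat 2, at 4426, 7141, 5481, 4656 and 4486, with a ratio of 1.61. The list's mean deviation in rat 3 was 0.35 under quantile normalization, 0.16 under median scaling and 0.02 without normalization. Over all detected genes that of rat 3 was -2.7e-05, -0.157 and -0.289 in the same order.

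**Figure D5:**
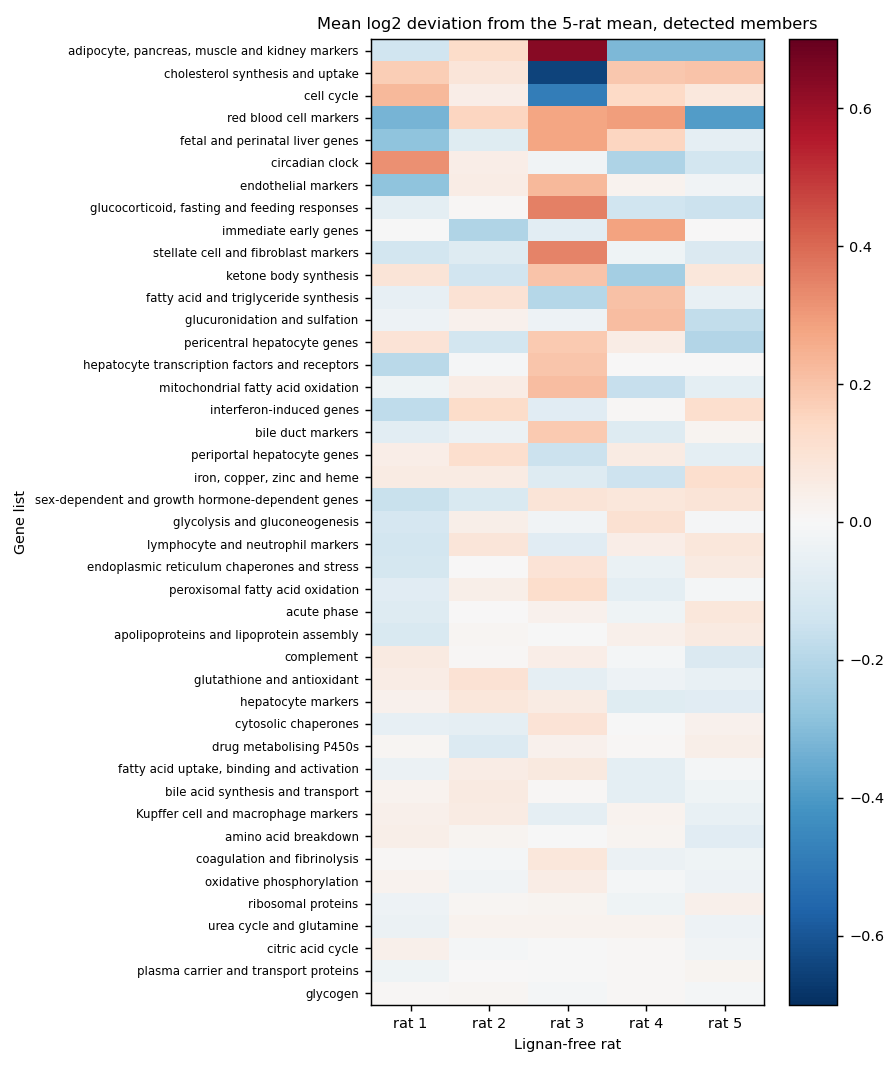
Mean log2 deviation of each rat from the 5-rat mean, over the detected members of each of 43 lists, under quantile normalization over 20 arrays. The most negative cell is cholesterol synthesis in rat 3 (-0.65), and the most positive is the list of fat, pancreas, muscle and kidney markers in rat 3 (0.64), which rests on 3 genes.

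Clock genes were low and spread by gene. Per2, a repressor of the clock, read 191, 74.0, 28.6, 31.6 and 66.0 in rats 1 to 5, and the deadenylase Noct read 248, 162, 158, 34.1 and 54.0, both highest in rat 1. The second probe set of Per2, not above the filter on all arrays, did not place rat 1 on top and read 13.7, 48.4, 10.1, 36.7 and 45.9. The activator Bmal1 was steady at 195, 233, 183, 199 and 203, and Nfil3 read 296, 243, 300.5, 479 and 488, highest in rats 4 and 5. Of 13 detected clock genes, 5 had a ratio of at least 2, against 8.45% of all detected genes. Their mean deviation was 0.32 in rat 1 and -0.21 in rat 4.

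Cell cycle genes were dim and low in rat 3. The mitotic kinase Aurka read 82.8, 69.4, 23.2, 78.3 and 63.9 in rats 1 to 5 and the phosphatase Cdkn3 169.9, 225, 62.7, 202 and 184, with rat 3 alone low in both. Pcna, the replication clamp, was lowest in rat 2, at 839.8, 564, 604, 727 and 649. Cyclin D1 (Ccnd1) behaved differently, with 294, 299.8, 372, 196 and 632, highest in rat 5 on all 3 of its probe sets. Of 31 detected genes, 16 had a ratio of at least 2 (8.45% of all), and 4 had without rat 3 (448 of 9676 genes). Rat 3 was the lowest in 22 (24.1% of all detected genes) and rat 1 the highest in 16 (22% of all). The mean deviation in rat 3 was -0.49, and it was -0.62 under median scaling and -0.74 without normalization, with the dim array as above. Over all detected genes that of rat 3 was -0.157 under median scaling and -0.289 without normalization.

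Markers of the cells around the hepatocytes shifted by rat. Decorin (Dcn), a matrix proteoglycan, read 108, 159.9, 391, 121 and 100.2 in rats 1 to 5 and Col3a1 2500.2, 2564, 3739.7, 2652 and 2724, both highest in rat 3. Rat 3 was the highest in 14 of 19 detected stellate and fibroblast markers, against 25.4% of all detected genes. Its mean deviation there was 0.35, which was 0.17 under median scaling and 0.04 without normalization. Over all detected genes the mean deviation of rat 3 was -0.157 under median scaling and -0.289 without normalization. Of the 19 markers, 4 had a ratio of at least 2 (8.45% of all). Under median scaling 2 had (1019 of 9424 genes), without normalization 1 had (1522 of 9470 genes), and without rat 3, 0 had (448 of 9676 genes). Endothelial markers were low in rat 1 (lowest in 11 of 16, against 23.8% of all detected genes, mean deviation -0.28), as in the fenestral protein Plvap at 62.4, 159, 109, 126 and 89.4, although Lyve1 was steady at 1326, 1175, 1314, 1359.6 and 1391. The low value of rat 1 was -0.26 under median scaling and -0.30 without normalization. Of 6 detected red blood cell genes, rat 5 was the lowest in 4 and rat 1 in 2, against 16.9% and 23.8% of all detected genes, with mean deviations of -0.39 and -0.33. Without normalization rat 5 was the lowest in 1, and its mean deviation over all detected genes was 0.167. The heme enzyme Alas2 of red cells read 201, 352, 371, 483 and 253, and Ahsp, which stabilises alpha-globin, 45.7, 63.6, 105, 92.0 and 36.7.

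Stress and immune genes also differed by rat. Among immediate early genes, 7 of 14 detected had a ratio of at least 2, against 8.45% of all detected genes. Without rat 4, 3 had, against 678 of 9552 genes. Dusp1, a phosphatase of MAP kinases, read 529, 446, 592, 1415 and 379 in rats 1 to 5 and Egr1 121, 68.8, 88.4, 260.0 and 87.8, with rat 4 alone high in both. The second probe set of Dusp1 read 105, 108, 141, 177 and 56.7. There rat 4 was again highest and rat 5 lowest, but rat 4 was not alone high. Of 31 interferon-induced genes, 5 had a ratio of at least 2, against 8.45% of all detected genes. Without normalization 13 had, against 1522 of 9470 genes. Without rat 1, 3 had (577 of 9603 genes), and without rat 4, 3 had (678 of 9552 genes). A count of 3 is too small to be read as a result. Oas1a, a sensor of double-stranded RNA, read 121, 343, 260.2, 157 and 332, lowest in rat 1. The chaperone Hspa1a, which heat and other stress induce, read 60.3, 62.5, 234, 81.5 and 95.7, with rat 3 alone high.

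Single genes of fat metabolism and detoxification spread widely. Acacb read 24.3, 122, 28.5, 73.5 and 43.7 in rats 1 to 5, and Acaca, its brighter sister, 2033, 1994, 1917, 2906 and 2075. Of 28 genes of fatty acid and triglyceride synthesis, 7 had a ratio of at least 2 (8.45% of all detected genes). Without rat 3, 4 had (448 of 9676 genes), and without normalization 11 had (1522 of 9470 genes). The transporter Slc27a4 read 51.4, 99.4, 67.4, 20.8 and 48.7, lowest in rat 4. Of 29 detected P450-system genes, 3 had such a ratio, close to the 8.45% of all detected genes. Cyp3a9 read 363, 125, 32.4, 275 and 334, with rat 3 alone far down, whereas Cyp3a18 read 1818, 2897, 3605, 934 and 1981, highest in rat 3. Ugt2b1, a glucuronosyltransferase, read 694, 1152, 779, 804 and 199, and the sulfotransferase Sult2a6 541, 485, 533, 979 and 146, both lowest in rat 5. In glycolysis, Pgk1 read 4786, 5551, 2429, 5992 and 6337, with rat 3 alone low. Its ratio of 2.61 was 1.32 without rat 3 and 1.997 with probe sets averaged. The second probe set of Pgk1 read 2541, 3016, 2296, 2841 and 3122, a ratio of 1.36, with rat 3 lowest but near rat 1.

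Rat 3 set itself apart most often. In 68 of the 9466 genes, 1 rat lay at least 2-fold from its nearest neighbour, and that rat was rat 3 in 34 of them (14 high, 20 low), rat 1 in 14, rat 4 in 8, rat 5 in 7 and rat 2 in 5. Among the 800 genes with a ratio of at least 2, rat 3 was the highest in 28.4% and the lowest in 34%. Over all detected genes these shares of rat 3 were 25.4% and 24.1%. Rat 3 also had the dimmest array, and the part of array brightness here was not tested.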

How the data were processed

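Liver RNA of 5 lignan-free rats, 1 Affymetrix array each, was analysed. The authors deposited 1 linear intensity per probe set and array. The software that computed these intensities was not given in the sources used here, and raw array means from 197 to 271 show that arrays had not been set to 1 scale. The 20 arrays of the series were quantile normalized and the 5 lignan-free arrays were then taken. Probe sets with 1 gene symbol (20832 of 31099, less 6 controls) were used, those with several (436) or none listed (9831) were not, and 20758 matched RefSeq by gene ID. The probe set of highest mean stood for its gene. The filter level was 17.8 and the offset before log2 was 5.85. Work was done in Python 3.11.15 with numpy 2.4.6 and pandas 2.3.3, and the spread statistics were tested on simulated data.

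Since 1 group was described, no test was made. Genes named are the 25 of highest mean, the 30 of largest log2 SD among detected genes, the 10 of smallest SD in the top 10%, up to 4 brightest and 2 most variable of each of 43 lists, defining list members below the filter level, members of 66 families and hepatocyte markers. The lists, families and members were chosen with earlier results of these data known. Alternatives changed the normalization, offset, filter and probe set rule, or left out each rat with the probe set of each gene kept.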

Additional observations from a re-analysis of the deposited data

Results flagged for a closer look

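In 10 of 182 values examined (180 genes and 2 array measures), 1 rat lay far from the other 4, judged on the log2 scale for genes by its gap to the nearest rat as a share of the whole range. Chance alone sets apart about 1 in 20 groups of 5, and among all 9466 detected genes 517 (5.46%) were set apart in the same way. The genes examined were named in part for large spread, and the rats were not counted over the 517. Rat 3 was the one in 7 of the 10. It was low in Aurka (23.2 against 63.9 to 82.8 in the other rats), Cdkn3 (62.7 against 169.9 to 225), Fdps (5045 against 6360 to 6882), Sqle (35.9 against 149 to 230.4), Gstm1 (7242 against 8626 to 9048) and Obp3 (1318.5 against 3949 to 5889). It was high in Col3a1 (3740 against 2500.2 to 2724). Rat 1 was low in Clca2 (24.8 against 134 to 154) and high in Apoc3 (14944 against 14246 to 14428), and rat 4 was high in Acaca (2906 against 1917 to 2075). The raw mean of the array of rat 3, at 197, was not set apart by this measure, and its part in these values was not tested.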

How the results depend on the processing

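The count of 9466 detected genes stayed within 1.5 times under the alternatives run for it (7441 to 12456, and 9552 to 9676 with each rat left out). The 800 genes with a ratio of at least 2 became 1522 without normalization between arrays, 450 with a filter at the 60th percentile (45.1) and 3805 with no filter. With each rat left out they numbered 448 to 678, the lowest without rat 3. The median log2 SD of 0.197 became 0.228 under median scaling, 0.269 without normalization, 0.209 with no offset, 0.180 with an offset of 16, 0.181 with the filter at the 60th percentile, 0.252 with no filter and 0.186 with the probe sets averaged per gene. With each rat left out it ran from 0.180 to 0.200. The cause of these shifts was not tested. Of 180 genes named with values, 64 were detected with a ratio of at least 2, and 37 of them kept it under every alternative in which the ratio was recomputed for single genes. It was lost in 27 when 1 rat or another was left out: 13 without rat 3, 9 without rat 1, 6 without rat 4, and 3 each without rat 2 and rat 5. It was also lost in 3 with an offset of 16 and in 3 with probe sets averaged. No paired analysis was possible because no groups were compared. Limits are 1 array per rat, no repeat arrays, unknown probe affinity, a compressed scale at the top and a floor at the bottom.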

Other observations

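Genes of the 2 ends of the liver lobule, and of protein folding, were read but not described above. Hepatocytes near the portal vein take up oxygen and make urea and glucose, and those near the central vein make glutamine and modify drugs. Of 15 measured periportal genes all were detected, against 66.6% of all genes, with Ass1, the apolipoprotein Apoa4 (7383 ± 245) and Cps1 at the top. The lipid droplet enzyme Hsd17b13 read 2139, 3172, 1368, 2311 and 2519 in rats 1 to 5 and was the 1 periportal gene with a ratio of at least 2, which it lost without rat 2 or rat 3 (1.84 and 1.48). Of 14 pericentral genes 12 were detected, with Cyp2e1, which oxidises ethanol, at 8238 ± 708, Gulo, the last enzyme of vitamin C synthesis, at 5666 ± 591, and Rgn at 5645 ± 383. Glutamine synthetase (Glul) read 1229.5, 1133, 2058, 1587 and 1449. In 4 of the 12 the ratio was at least 2 (8.45% of all detected genes), and without rat 3 in 2 (448 of 9676 genes). The receptor Nr1i3, known as CAR, was among them and read 50.8, 45.4, 179, 89.2 and 68.5, highest in rat 3 (ratio 3.60, and 1.85 without rat 3).

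Chaperones of the endoplasmic reticulum, where plasma proteins are folded, were all detected (28 of 28, against 66.6% of all genes, median 1370). Protein disulfide isomerase P4hb averaged 5987 ± 489 and the heat shock relative Hspa5 5369.8 ± 757 (SD, n = 5). The median log2 SD of the list was 0.182, against 0.197 over all detected genes.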
